A study of Mus musculus with 157 samples.

Results

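The promoters of untreated mouse embryonic stem cells were compared by how much RNA polymerase II (Pol II) phosphorylated at serine 5 (Ser5p) they carried for their total Pol II. The members were the 33671 RefSeq transcripts whose start-site windows had counts for both antibodies, 31988 of which passed a filter on low counts and stood for 22237 gene symbols. The cells were the E14 line, kept in serum and leukaemia inhibitory factor on gelatin-coated dishes and collected at 0 h of a time course of 1 µM retinoic acid, so no retinoic acid had been given. Of the 157 samples of the series, 4 crosslinked ChIP-seq libraries entered the comparison: Ser5p replicates 1 and 4, and total Pol II replicates 1 and 4, which was pulled down with an antibody to the N-terminal domain (NTD) of its largest subunit. All were of the same untreated cell line, and the labels name no allele or transgene for them.

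Pol II carries a long tail of repeats whose serines are phosphorylated in turn as a gene is transcribed. The kinase CDK7 of the initiation factor TFIIH places much of the Ser5 mark while Pol II is still at the promoter, where many polymerases then pause, and Ser2 phosphorylation gains on it along the gene. In embryonic stem cells, Ser5p is also known at CpG-rich promoters of silent developmental regulators that are bound by Polycomb complexes, a state often called poised.

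Promoter sequences are given for the ends of the comparison, because the promoters with most and with least Ser5p for their NTD differed in base composition from receptor promoters that served as a background. They are RefSeq promoters of GRCm38.p6 (mm10), from 250 bases before to 50 bases after the start site, 5′ to 3′, with each CG dinucleotide in capitals. The first pair had the most Ser5p for NTD and the second pair the least among the named genes with a single RefSeq promoter entry. Genes were ranked by the replicate whose ratio was nearer to 0, and the fitted ratio orders them differently. The fifth is the olfactory receptor promoter nearest to the median level of its family.
Vstm2b (chr7:40899028-40899327, plus strand): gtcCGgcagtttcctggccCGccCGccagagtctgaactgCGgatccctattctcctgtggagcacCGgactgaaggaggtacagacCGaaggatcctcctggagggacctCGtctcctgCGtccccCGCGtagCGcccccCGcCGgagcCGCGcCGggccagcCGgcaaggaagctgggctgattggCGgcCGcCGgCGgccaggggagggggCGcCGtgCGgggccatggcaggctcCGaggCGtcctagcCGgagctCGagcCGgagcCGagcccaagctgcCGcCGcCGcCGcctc
Tmem132e (chr11:82388650-82388949, plus strand): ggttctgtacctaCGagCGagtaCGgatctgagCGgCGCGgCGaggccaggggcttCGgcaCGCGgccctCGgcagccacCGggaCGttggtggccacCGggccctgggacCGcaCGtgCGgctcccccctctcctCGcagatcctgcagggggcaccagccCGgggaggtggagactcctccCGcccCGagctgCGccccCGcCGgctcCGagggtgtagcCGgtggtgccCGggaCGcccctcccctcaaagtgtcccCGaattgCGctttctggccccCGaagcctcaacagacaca
Spg11 (chr2:122118337-122118636, minus strand): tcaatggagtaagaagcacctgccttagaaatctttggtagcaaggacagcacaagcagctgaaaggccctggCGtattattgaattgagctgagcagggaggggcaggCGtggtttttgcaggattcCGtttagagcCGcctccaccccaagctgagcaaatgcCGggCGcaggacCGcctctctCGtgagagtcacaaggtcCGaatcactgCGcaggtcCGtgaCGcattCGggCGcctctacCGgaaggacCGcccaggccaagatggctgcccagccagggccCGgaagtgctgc
Arhgap19 (chr19:41802035-41802334, minus strand): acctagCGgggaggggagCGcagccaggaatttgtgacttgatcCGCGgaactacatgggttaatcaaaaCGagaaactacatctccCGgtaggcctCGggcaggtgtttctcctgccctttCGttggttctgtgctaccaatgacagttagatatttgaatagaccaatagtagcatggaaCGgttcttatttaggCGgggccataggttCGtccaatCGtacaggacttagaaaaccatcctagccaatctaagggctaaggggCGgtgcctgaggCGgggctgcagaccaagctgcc
Olfr206 (chr16:59345677-59345976, minus strand): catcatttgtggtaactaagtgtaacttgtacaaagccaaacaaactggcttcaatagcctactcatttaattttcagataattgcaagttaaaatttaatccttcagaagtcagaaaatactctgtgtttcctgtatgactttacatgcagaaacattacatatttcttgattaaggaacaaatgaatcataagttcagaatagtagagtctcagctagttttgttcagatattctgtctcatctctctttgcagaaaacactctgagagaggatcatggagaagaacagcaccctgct
These windows held 34 CG dinucleotides (Vstm2b), 31 (Tmem132e), 17 (Spg11), 14 (Arhgap19) and 0 (Olfr206).

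The authors counted reads within 1 kb on either side of each transcription start site (TSS). The Ser5p libraries held 2035536 (replicate 1) and 1533034 reads (replicate 4) in these windows, and the NTD libraries 1837698 and 2596873. Values below are counts divided by library size and edgeR's TMM factors (CPM), so a ratio compares shares of 2 antibodies' libraries, and a ratio of 1 does not mean equal amounts of the 2 forms. Between replicates, log2 CPM over transcripts correlated at r = 0.924 for Ser5p and 0.950 for NTD. Promoters of 980 olfactory and vomeronasal receptor genes, those of 1329 that passed the filter, which are silent in stem cells, gave the background, with medians of 8.76 and 9.15 CPM of Ser5p against 6.22 and 5.16 CPM of NTD. A promoter could pass the filter on the 2 libraries of 1 antibody alone. The promoters kept at low levels, receptors among them, may thus lean towards Ser5p. The stem cell markers had an NTD median of 87.5 CPM over 10 genes (11.1 to 158) and summed NTD levels of 868 and 1124 CPM. The 8 fibroblast markers lay at 4.26 to 8.73 CPM of NTD, within the range of receptor promoters, with sums of 63.3 and 44.7 CPM. NTD replicate 4 stood apart from NTD replicate 1 at 119 transcripts, described below with their values, and counts of calls are also given without it. Whether the replicates were grown apart is not stated, and the p-values speak only of how these libraries vary, which may be technical.

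Most of the listed Polycomb-associated and Hox genes were called higher, and the NTD medians of both lists lay below those of all genes. The promoters called lower lay mostly among those with the highest levels of both antibodies. With edgeR's quasi-likelihood test and a Benjamini-Hochberg adjusted p under 0.05 over all transcripts, Ser5p was higher than NTD at 1358 genes (6.11% of 22237) and lower at 1146 (5.15%), from 1910 transcripts higher (5.97%) and 1683 lower (5.26%). With each replicate taken apart, the ratio was at least 2-fold higher in both replicates at 749 genes (3.37%) and at least 2-fold lower in both at 22 (0.0989%), or 1061 (3.32%) and 36 (0.113%) of the transcripts. Both Ser5p libraries lay above both NTD libraries at 8099 genes (36.4%) and below them at 6457 (29.0%), so the lack of overlap alone is common. In replicate 1 alone 1523 genes were 2-fold higher and 81 were 2-fold lower, and in replicate 4 alone 3401 were higher and 490 lower. Over all transcripts the log2 ratio of replicate 1 correlated with that of replicate 4 at r = 0.618, a description in which both share the promoter's level. Of the transcripts called, 53.2% were higher; scaled to library totals this share was 83.6%, with level-dependent offsets 91.0%, with DESeq2 71.1%, and with receptor promoters set equal 7.24%. These scalings set the median log2 ratio of all transcripts to 0.30 for library totals, 0.02 for level-dependent offsets, 0.04 for DESeq2 and -0.54 for receptor promoters, against 0.10 with TMM. Without NTD replicate 4 only 136 transcripts were called higher and 41 lower, and without Ser5p replicate 4 there were 741 and 447.

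**Figure D1:**
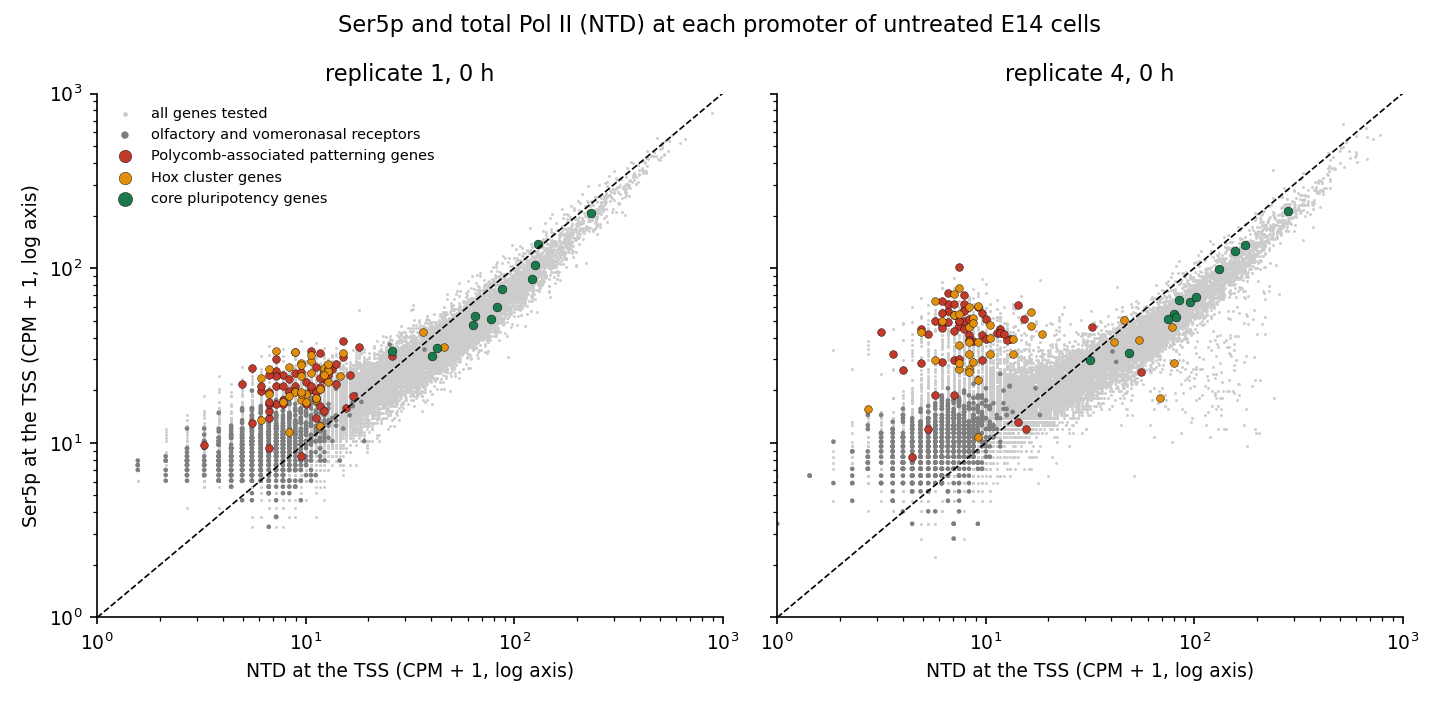
Ser5p against NTD at the TSS for each gene (CPM + 1, log axes) in replicate 1 (left) and replicate 4 (right) of untreated cells, with a dashed line where both are equal. Most Polycomb-associated and Hox genes stand above the line. Mean NTD was within the lowest 90% of receptor promoters at 34 of 57 Polycomb-associated and 13 of 39 Hox genes. Core pluripotency genes lie along the main band at high levels of both.

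The 10 promoters with the most Ser5p for NTD were Lbx1, Vstm2b, Tmem132e, Foxl2, AU022754, Pax2, Pitx1, Barhl2, Ptprt and Hoxc11. The rule asked for a call and a ratio of 2-fold or more in both replicates, so their agreement is no finding. Their low NTD follows in part from the ranking by ratio. Both Ser5p libraries lay above both NTD libraries at 36.4% of all genes. Lbx1, Foxl2, Pax2, Pitx1, Barhl2 and Hoxc11 encode transcription factors of organ formation. Lbx1, a homeobox factor of limb muscle precursors and spinal interneurons (chr19:45232684-45236841), had 23.0 CPM of Ser5p in replicate 1 and 66.5 CPM in replicate 4, against 2.83 and 7.74 CPM of NTD. The groups did not overlap, and its log2 ratio was 2.97 ± 0.48 (SE; adjusted p = 0.00347). Foxl2, a forkhead factor of the ovary (chr9:98955607-98958126), had 35.03 and 87.2 CPM of Ser5p against 5.65 and 6.02 CPM of NTD, a log2 ratio of 3.35 ± 0.40 (adjusted p = 0.00211). Its start site lies near that of the noncoding Foxl2os, and the windows of the pair cannot be told apart.
Pax2, a paired-box factor of kidney and hindbrain, had 25.8 and 71.4 CPM of Ser5p and 4.52 and 5.59 CPM of NTD. Pitx1, a homeobox factor of the hindlimb, had 30.9 and 62.2 CPM of Ser5p and 5.65 and 6.02 CPM of NTD. Their log2 ratios were 3.20 ± 0.44 and 2.96 ± 0.36, and in both genes every Ser5p library was above every NTD library. Hoxc11, a posterior Hox gene, had 32.7 and 64.0 CPM of Ser5p and 6.22 and 4.73 CPM of NTD. Vstm2b and Tmem132e, whose promoters are printed above, encode transmembrane proteins. Vstm2b had 17.5 and 40.9 CPM of Ser5p against 2.26 and 5.59 CPM of NTD, and Tmem132e had 26.3 and 54.9 CPM against 3.96 and 6.88 CPM. A second gene starts on the opposite strand within 1 kb of the Vstm2b start site, so that window can hold Pol II of both. In all 10 promoters NTD stayed below 10 CPM in both libraries, and Ser5p replicate 4 was above Ser5p replicate 1.

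**Figure D2:**
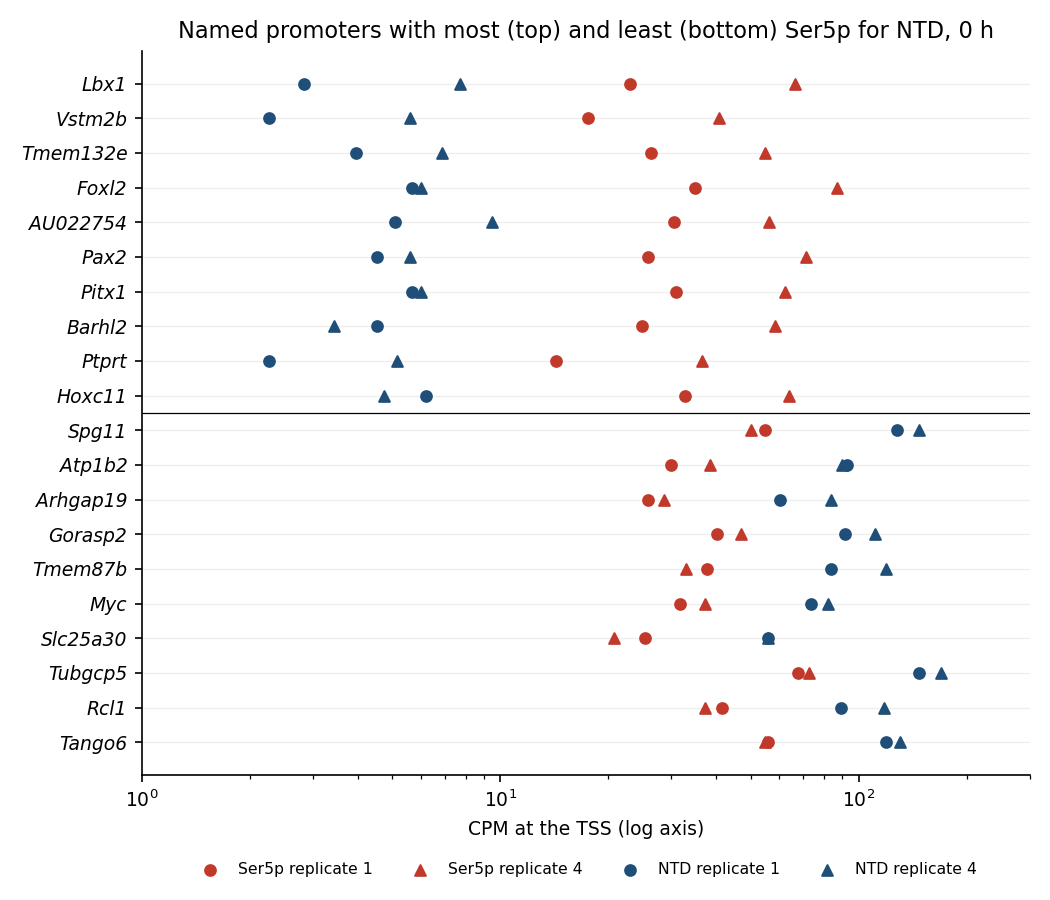
Ser5p (red) and NTD (blue) at the 10 named promoters with most (top) and the 10 with least (bottom) Ser5p for NTD, in CPM on a log axis, with circles for replicate 1 and triangles for replicate 4. In the upper group Ser5p lies right of NTD in both replicates and in the lower group left of it, as the rule that chose them asked.

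The Polycomb-associated homeobox and patterning genes are a list of developmental transcription factors and signalling ligands, chosen with earlier results of these data known. Whether these genes were silent or bound by Polycomb complexes in these cells was not measured here. They were higher at 51 of 57 members (89.5%, against 6.11% of all genes) and lower at none. Their median log2 ratio was 2.07, against 0.13 over all genes and 0.68 over the receptor promoters. Taken apart, 38 of the 57 were at least 2-fold higher in both replicates, as were 3.37% of all genes. The list medians were 20.3 and 43.9 CPM of Ser5p against 8.48 and 6.45 CPM of NTD. NTD was thus close to the receptor background: 34 of the 57 had a mean NTD level within the lowest 90% of receptor promoters (8.24 CPM or less), and of Ser5p only 2 did (12.6 CPM or less). Over all genes, 6841 had NTD that low, and 1316 of those (19.2%) had Ser5p beyond the receptor bound. Among the members, Pax9, a factor of teeth and thymus, had the largest ratio with 20.7 and 42.1 CPM of Ser5p against 3.96 and 2.15 CPM of NTD. Pax7, a factor of muscle stem cells, reached the highest Ser5p with 37.3 and 101 CPM, against 14.1 and 6.45 CPM of NTD.
The ligands Shh, Ihh, Wnt1, Wnt3a and Wnt6 were all called higher. Shh, the hedgehog ligand of neural tube and limb, had 14.3 and 29.3 CPM of Ser5p against 5.65 and 6.45 CPM of NTD. The log2 ratio was 1.59 at Wnt1 and 1.99 at Wnt6. Gata6, the factor that directs primitive endoderm, had 18.9 and 41.5 CPM of Ser5p against 5.09 and 10.3 CPM of NTD.
The members without a call were Isl1, Lhx3, Barhl1, Tbx5, En2 and Zic4. En2 had NTD above background, with 30.4 and 45.1 CPM of Ser5p and 24.9 and 31.4 CPM of NTD. Isl1 had 18.4 and 24.4 CPM of Ser5p, and 10.2 and 54.6 CPM of NTD, so its ratio turned with the replicate. Ser5p replicate 4 was above replicate 1 at 53 of the 57 promoters, by a median of 2.08 times, while over all genes the same median was 1.01. In replicate 1 alone the list's median log2 ratio was 1.20 and in replicate 4 alone 2.55. Without NTD replicate 4 the median was 1.93 and 12 members were called, and without Ser5p replicate 4 it was 1.45 and 33 were called. It was 1.43 with receptor promoters set equal, where 44 were higher and 1 was lower, and 1.86 with level-dependent offsets, where 24 were higher.

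**Figure D3:**
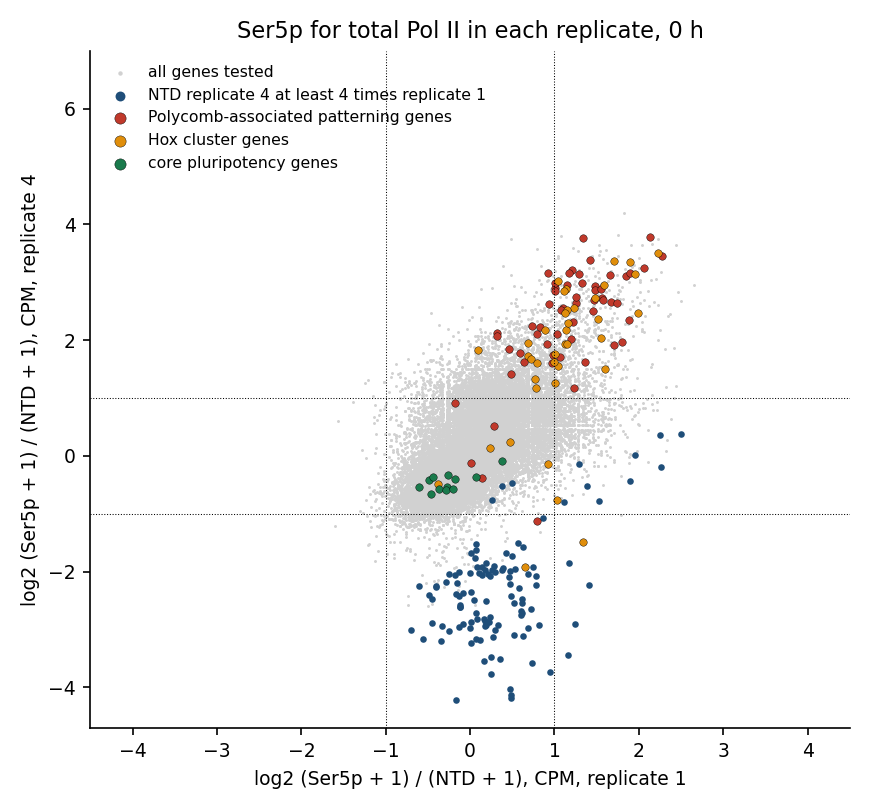
The log2 ratio of Ser5p to NTD (CPM + 1) for each gene in replicate 1 (x axis) and in replicate 4 (y axis), with dotted lines at 2-fold. Polycomb-associated and Hox genes lie towards the upper right, with larger ratios in replicate 4, and a separate cloud of genes with high NTD in replicate 4 only lies at the bottom.

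The Hox genes, which set position along the body axis and lie in clusters, were higher at 30 of 39 members (76.9%, against 6.11% of all genes). None was lower, and the median log2 ratio was 1.68. Their medians were 23.0 and 38.4 CPM of Ser5p against 9.04 and 7.74 CPM of NTD. Members without a call included Hoxa2, Hoxa4, Hoxb1, Hoxb2, Hoxb3, Hoxb5, Hoxb9 and Hoxd4. Hoxb9 carried NTD well above background, with 41.9 and 49.4 CPM of Ser5p and 35.6 and 45.1 CPM of NTD. Hoxb1, the gene of the fourth rhombomere, had 16.6 and 17.1 CPM of Ser5p against 10.2 and 67.5 CPM of NTD, and its ratio changed sign between replicates. Hoxb1, Hoxb2, Hoxb3 and Hoxb5 were the 4 Hox genes whose NTD was at least 4 times higher in replicate 4 than in replicate 1. The posterior genes Hoxd13 (32.3 and 70.1 CPM of Ser5p, 7.91 and 6.02 CPM of NTD) and Hoxc9 (26.3 and 76.2 CPM, 7.35 and 6.45 CPM) were among the largest ratios. Evx2 shares the window region of Hoxd13, and reads of the pair cannot be told apart. With receptor promoters set equal, 22 Hox genes were higher and 4 lower, and without NTD replicate 4, 8 were higher. Without Ser5p replicate 4, 19 were higher and 1 lower.

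Lineage regulators followed by list, and their counts are read against 6.11% of all genes higher and 5.15% lower. The lists share members, so their counts are not separate. Cdx2 and Eomes are in the mesoderm and trophoblast lists, and Gata4, Gata6 and Foxa2 in the Polycomb-associated and primitive endoderm lists. Of the mesoderm and primitive streak genes 9 of 15 were higher and none lower. T (Brachyury) had 24.0 and 53.1 CPM of Ser5p against 8.48 and 5.59 CPM of NTD, and Cdx2, a caudal factor of trophoblast and posterior body, had 28.1 and 60.4 CPM against 9.04 and 4.30 CPM. Eomes and Gsc were also higher, and Snai1 was not called, with 31.8 and 23.8 CPM of Ser5p against 42.4 and 33.5 CPM of NTD.
Of the primitive endoderm genes 9 of 18 were higher. Besides Gata4, Gata6, Foxa2 and Sox17, these included the basement membrane collagens Col4a1 and Col4a2, which share a promoter (27.7 and 61.6 CPM of Ser5p against 9.04 and 12.5 CPM of NTD at Col4a1). The laminin genes Lama1, Lamb1 and Lamc1 were not called, with log2 ratios of -0.16, -0.07 and -0.11.
Among neural genes 7 of 18 were higher and 1 was lower. Pax6 had 24.0 and 46.4 CPM of Ser5p against 10.7 and 15.5 CPM of NTD. Elavl3, a neuronal RNA-binding protein gene, was the lower one, with 41.0 and 38.4 CPM of Ser5p against 69.5 and 64.1 CPM of NTD. Sox1, the neural plate factor, was not called, with 16.6 and 40.3 CPM of Ser5p against 20.3 and 20.2 CPM of NTD.
Trophoblast genes were higher at 4 of 12 members (33.3%) and fibroblast genes at 1 of 12 (8.33%), near the share of all genes. Of the formative genes 3 of 15 were higher, among them Fgf5 (28.1 and 37.2 CPM of Ser5p against 6.22 and 5.16 CPM of NTD), a marker of the state that follows naive pluripotency. These counts were smaller without NTD replicate 4, with 1 mesoderm, 3 primitive endoderm, 1 trophoblast and 1 formative gene higher and 0 neural and 0 fibroblast genes. Without Ser5p replicate 4, 6 mesoderm, 6 primitive endoderm, 2 trophoblast, 2 formative and 1 neural gene were higher.

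Genes of the retinoic acid pathway were measured before any retinoic acid was given. Of 22 members 4 were higher (18.2%, against 6.11% of all genes) and 1 was lower (4.55%, against 5.15%). The higher ones were the nuclear receptors Nr2f1 and Nr2f2, the retinoic acid-degrading enzyme Cyp26a1 and the synthesising enzyme Aldh1a2. Nr2f1 had 18.4 and 35.4 CPM of Ser5p against 3.39 and 3.44 CPM of NTD, and Cyp26a1 had 22.6 and 42.1 CPM against 14.7 and 12.04 CPM. Of the receptors of retinoids, Rara, Rarb, Rarg, Rxra and Rxrg were not called, and Rxrb was lower with 62.7 and 70.1 CPM of Ser5p against 93.3 and 128 CPM of NTD. Rarb, which retinoic acid induces, had 18.9 and 25.0 CPM of Ser5p and 15.8 and 24.1 CPM of NTD. Its log2 ratio of 0.11 ± 0.30 (adjusted p = 0.809) was -0.15 without NTD replicate 1 and -0.11 without Ser5p replicate 4. With the replicate 4 library of either antibody left out, 2 genes of the pathway were higher and 0 lower.

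**Figure D4:**
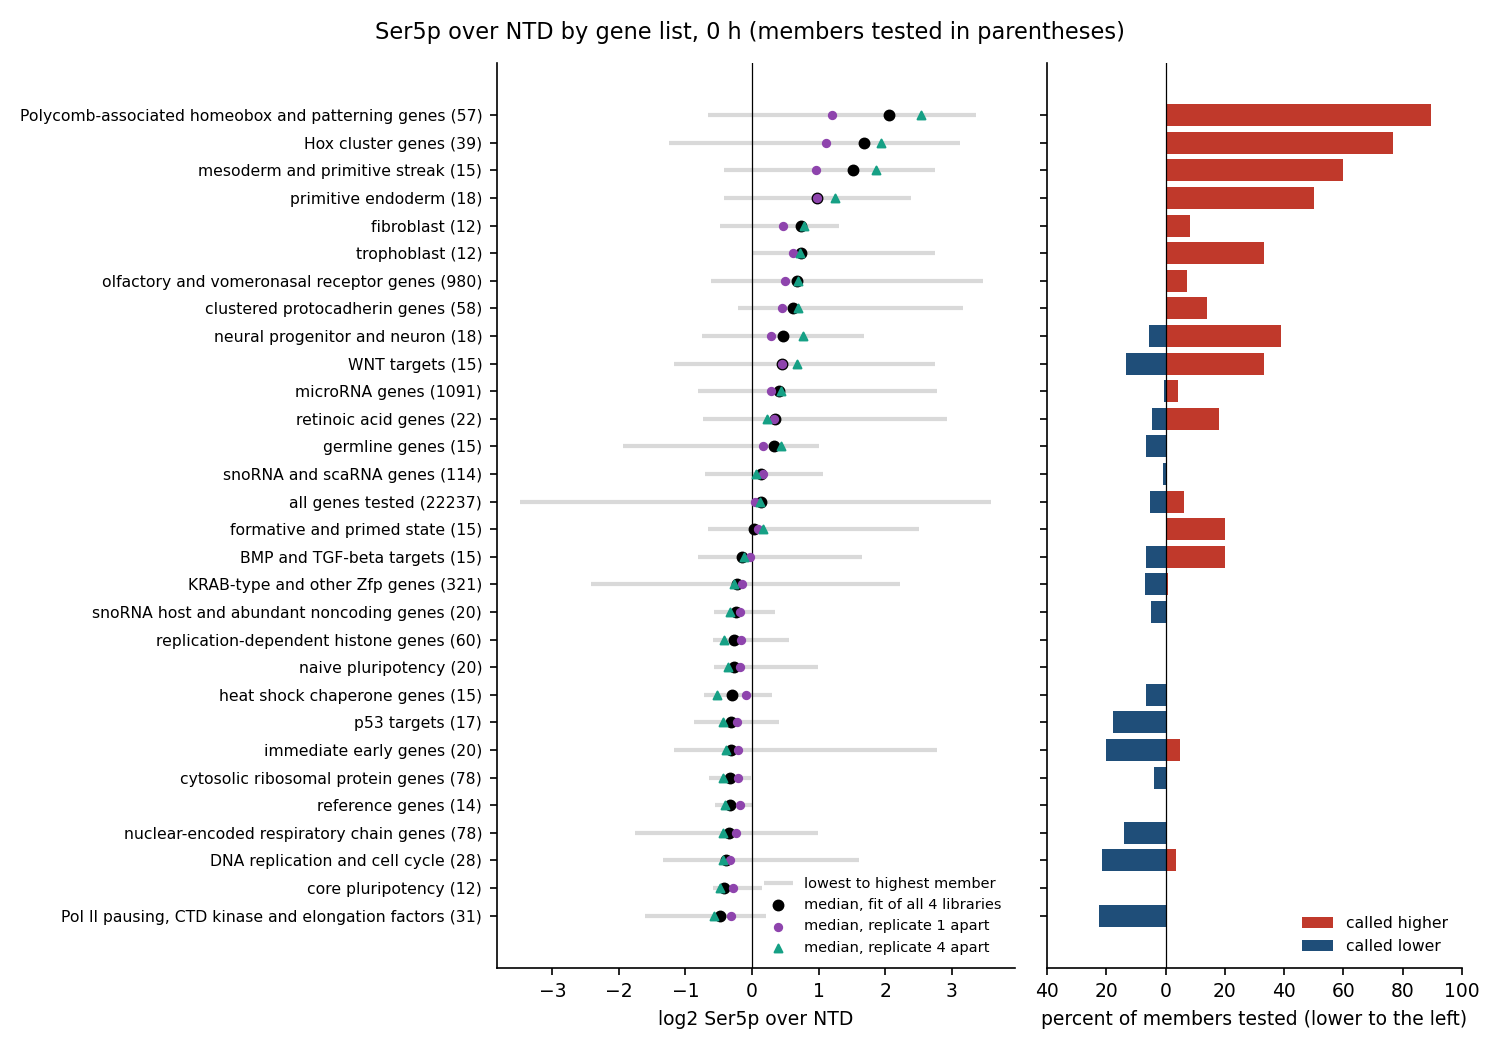
For each gene list with at least 10 members tested, the left panel gives the range and median of the log2 ratio of Ser5p to NTD, with each replicate's own median, and the right panel gives the percent of members called higher (red) or lower (blue). The Polycomb-associated, Hox, mesoderm and primitive endoderm lists stand highest, and the lists of pluripotency, ribosomal protein and Pol II factor genes have medians left of 0 with this scaling.

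The 10 promoters with the least Ser5p for NTD in both replicates were Spg11, Atp1b2, Arhgap19, Gorasp2, Tmem87b, Myc, Slc25a30, Tubgcp5, Rcl1 and Tango6. The rule asked for a ratio of 2-fold or more in both replicates, so their agreement is no finding. Spg11, which encodes the lysosomal protein spatacsin (chr2:122053526-122119434), had 54.9 and 50.01 CPM of Ser5p against 128 and 147 CPM of NTD, a log2 ratio of -1.39 ± 0.18 (adjusted p = 0.00222). Atp1b2, a beta subunit of the sodium pump, had 30.0 and 38.4 CPM of Ser5p against 92.7 and 89.9 CPM of NTD. Arhgap19, a GTPase-activating protein, had 25.8 and 28.7 CPM of Ser5p against 60.5 and 83.8 CPM of NTD. In these genes every Ser5p library was below every NTD library.
Tubgcp5, a part of the gamma-tubulin ring complex, had 67.8 and 72.6 CPM of Ser5p against 147 and 170 CPM of NTD. Rcl1, which acts in ribosomal RNA processing, had 41.5 and 37.2 CPM of Ser5p against 89.3 and 118 CPM of NTD. Myc, the growth regulator, had 31.8 and 37.2 CPM of Ser5p against 73.5 and 82.1 CPM of NTD, a log2 ratio of -1.18 ± 0.21 (adjusted p = 0.00443). Of these 10, Spg11, Atp1b2, Arhgap19, Tmem87b, Tubgcp5, Rcl1 and Tango6 were among the 14 genes that were lower in all 13 other analyses tried. The genes that were higher in every one in which they were tested numbered 76, among them Foxl2, Pax2, Barhl2, Hoxc11, Cdx2 and Fgf5.

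With TMM scaling, lists of genes active in stem cells had medians below that of all genes, and 5.15% of all genes were lower. In classes 8, 9 and 10 of 10 classes of rising level, described below, 8.00%, 15.8% and 25.4% of transcripts were lower. All genes are thus no background of like level for these lists. None of 12 core pluripotency genes was called, and their median log2 ratio was -0.42; both replicates' ratios were below 0 at 10 of the 12, and the libraries did not overlap, with Ser5p below, at 8 (29.0% of all genes did so). Pou5f1 had 46.1 and 64.7 CPM of Ser5p against 62.7 and 83.8 CPM of NTD, and Sox2 had 104 and 124 CPM against 125 and 157 CPM. Nanog, with 34.1 and 62.8 CPM of Ser5p against 41.8 and 95.0 CPM of NTD, differed more between replicates than between antibodies. With level-dependent offsets the list's median was 0.05.
Of the 20 naive pluripotency genes none was called, with a median of -0.27. Zfp42 (Rex1) had 93.1 and 110 CPM of Ser5p against 124 and 168 CPM of NTD (log2 ratio -0.53 ± 0.19, adjusted p = 0.0746). Esrrb stood apart from its list, with 20.3 and 24.4 CPM of Ser5p against 10.2 and 12.04 CPM of NTD, a log2 ratio of 0.99 ± 0.31 (adjusted p = 0.0528). Over its gene body, in the authors' FPKM, Esrrb had 3.25 and 4.17 of NTD. Genes not called had medians of 0.921 and 0.902. The low NTD of Esrrb thus holds for this window and not for the gene body, and the reason was not tested.
Genes for the pausing and elongation machinery of Pol II itself were lower at 7 of 31 members and higher at none, with a median of -0.48. The lower ones were Nelfa, a subunit of the pausing factor NELF, Polr2a, the Pol II subunit that carries the phosphorylated tail, Hexim1, Paf1, Cdc73, Ctdp1 and Supt4a. Nelfa had 45.2 and 46.4 CPM of Ser5p against 96.1 and 108 CPM of NTD, and Polr2a had 201 and 224 CPM against 339 and 402 CPM. With level-dependent offsets none of these was called and the list's median was -0.06.
Immediate early genes were lower at 4 of 20 members (Myc, Ctgf, Fos and Dusp1) and higher at 1, Egr3, which had 23.0 and 56.7 CPM of Ser5p against 6.78 and 4.73 CPM of NTD. Fos had 70.5 and 65.9 CPM of Ser5p against 111 and 109 CPM of NTD, and Egr1 had 66.8 and 46.4 CPM against 89.9 and 66.2 CPM (adjusted p = 0.167).
Genes of DNA replication and the cell cycle were lower at 6 of 28 and higher at 1, the cyclin gene Ccnd2, with 31.3 and 44.5 CPM of Ser5p against 13.0004 and 11.6 CPM of NTD. Respiratory chain genes were lower at 11 of 78 (14.1%). With level-dependent offsets no immediate early, replication or respiratory chain gene was lower, and the medians of these lists were 0.13, 0.03 and -0.05. Ribosomal protein genes were lower at 3 of 78 (3.85%), no more than the share of all genes, and with level-dependent offsets their median was 0.11 with no call. Actb had 303 and 316 CPM of Ser5p against 348 and 448 CPM of NTD and was not called (adjusted p = 0.20). Without NTD replicate 4, 1 gene of Pol II pausing and elongation, 1 immediate early gene and 0 replication, respiratory chain and ribosomal protein genes were lower. Without NTD replicate 1, these counts were 14, 5, 9, 23 and 8. Without Ser5p replicate 1 they were 4, 2, 5, 5 and 0, and without Ser5p replicate 4 they were 3, 1, 1, 6 and 0. Core pluripotency genes were lower at 2 without NTD replicate 1 and at 1 without Ser5p replicate 4, and naive genes at 3 without NTD replicate 1.

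Some low ratios rested on NTD replicate 4 alone. At 119 transcripts NTD was at least 4 times higher in replicate 4 than in replicate 1 (CPM + 1), against 4 transcripts the other way and none in either direction for Ser5p. Their medians were 17.1 and 19.5 CPM of Ser5p, and 13.0004 and 116 CPM of NTD, they lay on 20 chromosomes, and 58 were called lower. The 6 lowest ratios among promoters in the top 10% of NTD were all of this kind, among them those of Col8a1, Zfp770, Irak3, Slc1a3 and Afg1l. Col8a1, a short-chain collagen gene, had 6.45 and 16.5 CPM of Ser5p against 8.48 and 159 CPM of NTD, so in replicate 1 its levels were close. Zfp770 had 23.5 and 21.96 CPM of Ser5p against 35.04 and 206 CPM of NTD. The germline gene Mael (16.6 and 12.8 CPM of Ser5p, 14.7 and 96.7 CPM of NTD) was also of this kind, as was the respiratory chain gene Ndufa4 (32.7 and 40.9 CPM, 43.5 and 200 CPM). Supt4a, a subunit of the elongation factor DSIF, had 30.9 and 31.7 CPM of Ser5p against 41.8 and 146 CPM of NTD, so its NTD replicates differed by less than 4 times. Without NTD replicate 4 none of Col8a1, Irak3, Mael and Mcm3 kept a negative ratio. Over the 118 genes these transcripts stand for, the NTD median was 112 CPM in 0 h replicate 4 and 93.2 CPM in 72 h replicate 3, and between 12.03 and 15.1 CPM in the other 15 NTD libraries of the course. The Ser5p median was 13.1 to 19.8 CPM in all 18 Ser5p libraries, so only 2 NTD libraries stood apart at these promoters. What sets these promoters apart in those libraries was not tested.

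The ratio moved with the level of the promoter. In 10 classes of rising mean level over all 4 libraries, the median log2 ratio was 0.71 in class 1 and -0.47 in class 10. Higher calls were most frequent in class 4 (13.5%) and class 5 (15.4%) and were 0 of 3199 in class 10, where 25.4% were lower. With NTD replicate 4 left out, class 5 held the most higher calls (46) and class 10 the most lower calls (26). The spans of the libraries differed as well: between the 10th and the 90th percentile lay 8.30 to 58.1 and 8.54 to 56.7 CPM for Ser5p, against 5.65 to 75.2 and 4.73 to 86.0 CPM for NTD. With level-dependent offsets, which take out this trend, 274 transcripts were higher and 27 lower.

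Promoter sequence, which the ratio did not use, differed between the genes called lower and all genes tested, and less between the genes called higher and all genes. All genes tested are no background of like level, however. With NTD above the median 5 CpG-rich genes and 0 CpG-poor ones were called higher, and with NTD below it 0 were lower. Within each of these levels CpG-rich promoters were called more often than CpG-poor ones, as given below. Of genes with 1 RefSeq promoter entry, the CpG content (observed over expected) had a median of 0.603 in 813 genes called higher and 0.852 in 768 called lower, against 0.622 in all 13537 such genes tested and 0.106 in receptor genes. Promoters above 0.6 made up 50.6% of the higher, 91.4% of the lower and 51.8% of all. The 247 higher genes with 2-fold ratios in both replicates and Ser5p above the median were CpG-rich in 74.9%, and without NTD replicate 4 the share was 82.5% of 57 higher and 82.6% of 23 lower genes. Among promoters with NTD below the median, Ser5p was higher at 406 of 1544 CpG-rich promoters (26.3%) and at 402 of 5303 CpG-poor ones (7.58%). The median log2 ratios of these sets were close, at 0.66 and 0.61, and the CpG-rich set had more reads, with medians of 15.9 and 10.4 CPM of Ser5p and 9.78 and 6.70 CPM of NTD. With NTD above the median, Ser5p was lower at 702 of 5469 CpG-rich (12.8%) and 66 of 1221 CpG-poor promoters (5.41%), with median log2 ratios of -0.39 and -0.20. The TATA motif TATAAA, read on both strands, lay in 13.4% of higher, 8.07% of lower and 12.2% of all tested promoters, against 14.8% of all 22862 single-entry promoters. The GC box GGGCGG lay in 49.2%, 74.1% and 49.6% of these sets, against 35.2% of all single-entry promoters. A second gene's start site on the opposite strand within 1 kb was present at 13.3% of higher, 34.6% of lower and 17.2% of all tested promoters, so a window can hold Pol II of 2 genes. Promoters are not replicates, and these shares are descriptions.

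Over gene bodies, in the authors' FPKM at 0 h, the medians of genes called higher lay close to those of receptor genes. The medians of genes called lower lay above those of genes not called. Body NTD came from the same NTD libraries as the ratio, so its low and high medians may follow in part from the calls. No set of like NTD level was compared. The median Ser2p of the Hox list lay above that of genes not called in both replicates, and that of the Polycomb-associated list in replicate 4 only. Ser2p, the form of elongating Pol II, had medians of 0.792 and 0.854 FPKM in replicates 1 and 4 over the bodies of higher genes, 1.251 and 1.14 FPKM over lower genes, 0.966 and 0.956 FPKM over genes not called, and 0.784 and 0.832 FPKM over receptor genes. NTD had body medians of 0.676 and 0.636 FPKM over higher genes, 1.47 and 1.63 FPKM over lower genes, 0.921 and 0.902 FPKM over genes not called, and 0.630 and 0.591 FPKM over receptor genes. The Hox list, with 30 of 39 genes called higher, had 1.10 and 1.253 FPKM of Ser2p, above the genes not called, and 0.912 and 0.899 FPKM of NTD. The 107 genes called higher without NTD replicate 4 had 0.829 and 0.923 FPKM of Ser2p and 0.723 and 0.697 FPKM of NTD, and the 30 lower genes of that fit had 1.21 and 1.11 FPKM of Ser2p and 1.51 and 1.575 FPKM of NTD. The Polycomb-associated list had 0.914 and 1.06 FPKM of Ser2p and 0.771 and 0.725 FPKM of NTD. Foxl2 had 1.32 and 1.34 FPKM of Ser2p and 0.955 and 0.812 FPKM of NTD over its body. Myc had 1.21 and 0.934 FPKM of Ser2p and 2.74 and 2.97 FPKM of NTD.

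In the 31 libraries from 2 to 72 h of retinoic acid, which the 0 h comparison did not use, the ratio at developmental promoters was lower at 48 and 72 h than at 0 h. These values come from TMM factors over all 35 libraries, so the 0 h values differ slightly from those above. The median log2 ratio of group means over the Polycomb-associated list was 1.94 at 0 h, 1.58 at 2 h, 1.20 at 4 h, 1.11 at 6 h, 1.00 at 24 h, 0.43 at 48 h and 0.39 at 72 h, while the median of all genes was 0.10 at 0 h and 0.00 at 48 h. Ser5p over the list had medians of 13.1 and 10.4 CPM in the 72 h libraries and 11.7 to 13.4 CPM in the 3 at 48 h, against 19.5 and 42.3 CPM at 0 h. NTD had 9.92 and 6.69 CPM at 72 h against 8.21 and 6.26 CPM at 0 h. Ser5p was thus below both 0 h libraries at 48 and 72 h, and the 2 h libraries (17.5 to 30.8 CPM) overlapped the 0 h range. The times do not hold the same replicate numbers. In replicate 1 alone, the Ser5p medians were 19.5 CPM at 0 h, 30.8 at 2 h, 26.8 at 4 h, 15.9 at 6 h, 13.4 at 48 h and 13.1 at 72 h. The Hox list had median ratios of 1.56 at 0 h and 0.14 at 72 h. Receptor promoters had 0.57 and 0.42 at these times. Genes called lower at 0 h had a negative median at every time, between -0.49 and -0.29 after 0 h, against -0.75 at 0 h, the contrast that chose them. At 0 h the ratio fell with the level over all promoters. Uncalled promoters of like level were not followed at later times, so that trend cannot be told apart from a trait of these genes. Spg11 had ratios of -1.38 at 0 h and -0.72 at 72 h, and Atp1b2 -1.40 and -1.26.

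**Figure D5:**
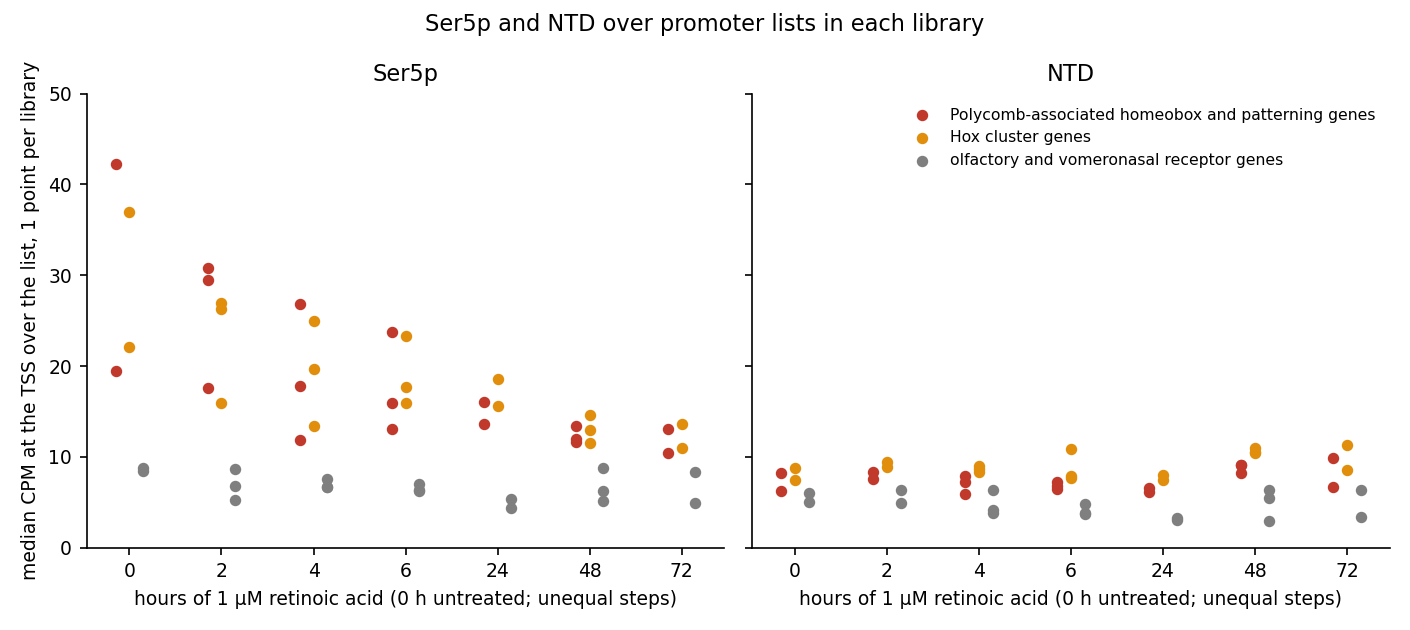
Median CPM at the TSS over the Polycomb-associated, Hox and receptor lists in each library, Ser5p (left) and NTD (right), by hours of retinoic acid. Ser5p over the Polycomb-associated list is 19.5 and 42.3 CPM at 0 h and 10.4 to 13.4 CPM at 48 and 72 h, while NTD stays below 10 CPM throughout.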

How the data were processed

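Crosslinked ChIP-seq of Ser5p and NTD was read from the deposited tables of untreated E14 cells. Per the submitters' processing notes, the builds mm10 and dm6 and the tools Bowtie2, SAMtools, MACS2 and DESeq2 were named; no version or counting tool is given in the sources used here. The authors deposited raw read counts per RefSeq transcript within 1 kb of the TSS, and FPKM over gene bodies. Left unused were 146 deposited columns that hold values of single samples or of groups. The tables held 33746 (Ser5p) and 33687 (NTD) transcripts and were joined by transcript ID; 79 joined transcripts had no symbol (0.0439 to 0.0649% of a library's counts) and stayed in the library sizes and tests.

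The 4 libraries entered 1 fit by edgeR 4.0.16 with limma 3.58.1 in R 4.3.3 (quasi-likelihood test, TMM factors, filterByExpr by antibody, no replicate block), at a Benjamini-Hochberg adjusted p of 0.05. The common biological coefficient of variation was 0.15. DESeq2 1.42.0 was an alternative. Ratios of replicates apart are log2 of CPM + 1, replicate 1 with 1 and 4 with 4, which understates the ratio of low promoters. A symbol was represented by its transcript with most counts. Isoforms share reads: the 31988 transcripts tested held 24506 distinct sets of counts. ChIP-seq does not read strand, so overlapping windows cannot be told apart.

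The genes named were, without predicted genes and receptor or small RNA genes, the 10 called with the largest and the 10 with the smallest ratio at 2-fold or more in both replicates and above-median level, ranked by the replicate nearer to 0; then, by the ratio fitted, the 6 at each end in the top 10% of NTD (none was higher there); then 2 called members per list; and 17 genes named whatever their values, such as Pou5f1, Rarb and Polr2a. Other members of lists were named after their values were seen. The members, the 30 lists and the rule were chosen with earlier results of these data known. Promoters came from RefSeq (GRCm38.p6); 31699 of the transcripts tested matched by accession. Figures used matplotlib 3.10.9 in Python 3.11.15. Alternatives covered scaling, filters, rows, libraries, pseudocount and pairing. Some named or listed genes are not reported here.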

Additional observations from a re-analysis of the deposited data

How the results depend on the processing

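Counts of called transcripts depended on the scaling and on single libraries. Against 1910 higher and 1683 lower with TMM, library totals gave 531 lower (higher within 1.5 times), receptor promoters set equal gave 973 and 12465, level-dependent offsets 274 and 27, at least 50 counts in 2 libraries 262 and 30, DESeq2 498 and 202, and 1 row per distinct set of counts 1266 higher. With the replicate number as a block there were 3080 higher and 3877 lower; deviations of same-numbered libraries correlated at 0.0379 over transcripts, and whether the numbers pair the libraries is not known. Leaving out 1 library gave 136 to 2692 higher and 41 to 3271 lower; with NTD replicate 4 left out, 106 of the 1358 higher genes and 30 of the 1146 lower genes were still called, and 1117 of the 1146 kept a negative ratio. At least 2-fold in both replicates, 1061 transcripts were higher and 36 lower; a pseudocount of 5 gave 377 and 17, library totals 1822 and 3, and receptor scaling 266 and 2131.

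Among named genes 866 values counted as unchanged, 168 lost a call, 23 gained one and 17 counted as changed in sign. In fits with p-values, unchanged meant the same direction and side of the threshold. With both replicate 4 libraries left out there was no p-value. There unchanged meant a shift within the SD of the replicates' ratios, and 30 values moved further. With receptor promoters set equal the log2 ratio was -0.56 at Rarb and -0.20 at Sox1. With level-dependent offsets it was 0.013 at Egr1, 0.055 at Pou5f1 and 0.15 at Sox2, and with at least 50 counts 0.030 at Actb and 0.076 at Sox2. Leaving out 1 library at a time gave ranges of -3.87 to 0.35 at Col8a1, -2.01 to 0.72 at Hoxb1, -2.83 to 0.078 at Irak3, -2.70 to 0.020 at Mael, -1.99 to 0.0021 at Mcm3 and -1.02 to 0.19 at Nanog, each highest without NTD replicate 4. The ranges were -0.15 to 0.46 at Rarb and -0.29 to 0.98 at Sox1. In replicate 1 alone Mael had 0.16. The cause of these changes was not tested. With 2 libraries an antibody, a fit without 1 library assumes that the lone library varies like the other antibody's pair. The count totals limit the precision at low promoters.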

Other observations

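Targets of signalling pathways and large gene families were compared in the same way, against 6.11% of all genes higher and 5.15% lower. Some members, such as Cdx2, T, Msx1 and Myc, were already counted in lists above. Among 15 WNT targets 5 were higher (Cdx2, T, Lef1, Lgr5 and Sp5) and 2 lower (Myc and Znrf3), with a median log2 ratio of 0.45. Among 15 BMP and TGF-beta targets 3 were higher (Msx1, Msx2 and the antagonist gene Nog) and 1 was lower, with a median of -0.15. Of the 58 clustered protocadherin genes, neuronal adhesion genes with many alternative promoters, 8 were higher and none lower, with a median of 0.61. The 321 Zfp genes, most of them zinc finger repressors, were lower at 22 (6.85%, against 5.15% of all genes) and higher at 3, with a median of -0.22. The receptor genes themselves were higher at 71 of 980 (7.24%, against 6.11% of all genes) with TMM scaling and at 0 with level-dependent offsets. They could pass the filter on their Ser5p libraries alone, so these calls are no finding about receptors. Olfr1424 had 6.45 and 5.49 CPM of Ser5p against 0.565 and 0.430 CPM of NTD. Without NTD replicate 4 there were 1 higher and 1 lower WNT target, 0 BMP targets, 1 higher protocadherin gene, 1 higher and 0 lower Zfp genes, and 0 receptor genes. Without Ser5p replicate 4 the receptor genes called higher were 16, the protocadherin genes 2 and the Zfp genes called lower 7. Without NTD replicate 1, 48 Zfp genes were lower, and without Ser5p replicate 1, 9 were lower and 41 receptor genes higher.

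Of the other lists, p53 targets were lower at 3 of 17 (17.6%), namely Ccng1, Cdkn1a and Sesn2, with a median of -0.31. With level-dependent offsets no p53 target was lower and the median was -0.04. Heat shock chaperone genes were lower at 1 of 15 (Dnajb1, 6.67%, median -0.30) and germline genes at 1 of 15 (Mael, 6.67%, median 0.33). The snoRNA host genes were lower at 1 of 20 (Snhg17, 5%, median -0.24). The shares of the last 3 lists were near the 5.15% of all genes. The 14 reference genes had no call and a median of -0.33, and the 5 spliceosomal snRNA genes had no call and a median of 0.00. MicroRNA genes were higher at 44 of 1091 (4.03%, below the 6.11% of all genes) and lower at 6 (0.55%, against 5.15%), with a median of 0.41. That median was 0.35 without NTD replicate 4, 0.36 without Ser5p replicate 4 and 0.47 without NTD replicate 1. The snoRNA genes were lower at 1 of 114 (median 0.14). Windows of both lists often lie in or near host genes, whose reads cannot be told apart from theirs. The 60 replication-dependent histone genes had no call, with medians of 269 and 170 CPM of Ser5p against 302 and 225 CPM of NTD. Their Ser5p was lower in replicate 4 than in replicate 1 at all 60 genes; near-identical histone copies share reads, so single members are uncertain. Without Ser5p replicate 1, 24 histone genes were lower. Without NTD replicate 4 the p53, heat shock, germline and snoRNA host lists had 0 lower genes.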
